A study of Mus with 12 samples.

Results

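The genes that move chloride, bicarbonate and sodium across the lining of the uterus were followed through mouse pregnancy. They were 7 genes: the chloride and bicarbonate channel Cftr, the epithelial sodium channel (ENaC) subunits Scnn1a, Scnn1b and Scnn1g, and Clca1, Clca3a1 and Clca3b of the calcium-activated chloride channel regulator family. A row of a deposited table was taken when it named the gene and listed an Ensembl transcript. Each gene had 1 such row in each table, so 7 of 87235 rows were followed in the table of E0.5 and E4.5 and 7 of 40787 rows in the table of E15.5 and E18.5.

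The study sequenced RNA from the whole uterus of 12 pregnant ICR mice, an outbred strain, which were 8 weeks old. There were 4 groups of 3 mice, taken at E0.5 or E4.5 and at E15.5 or E18.5 (embryonic day, counted from mating), with 1 mouse per library and no drug, transgene or deletion in any group. E0.5 was compared with E4.5 for the implantation stage and E18.5 with E15.5 for the labor stage. The study chose the stages with the hormone progesterone in view, which was not measured in these files. A whole uterus mixes epithelium, stroma and muscle, and at the later days it can carry tissue of the conceptus, so fewer cells of a type and less RNA per cell cannot be told apart.

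The fluid in the uterine lumen is set by salt transport through the epithelium, and water follows the salt. Cftr is a cAMP-gated anion channel of the apical membrane through which chloride and bicarbonate leave the cell, and ENaC, built from an alpha (Scnn1a), a beta (Scnn1b) and a gamma (Scnn1g) subunit, takes up sodium and with it fluid from the lumen. Clca proteins are secreted, protease-like modulators of calcium-activated chloride channels, and Clca1 is known from mucus-producing goblet cells. In rodents, estrogen raises uterine Cftr and fluid secretion, while absorption prevails around implantation.

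Values are FPKM, fragment numbers scaled for transcript length and library size, which allows levels of different genes to be compared within a table. The 2 tables were normalized separately, so levels set across them are side by side and were not tested. Total counts lay between 58020989 and 70906881 at E0.5 and E4.5, and the depth at E15.5 and E18.5 is unknown because that table holds no counts. Markers of epithelium, stroma and smooth muscle were present at both stages, and none of these 17 genes was listed at 0 throughout a table. The library of E4.5 replicate 3 stood apart. Its Spearman correlation with E4.5 replicates 1 and 2 was 0.627 and 0.598, against 0.817 between those 2 libraries, over 36698 rows. The summed level of 5 ovary markers was 1306 FPKM in it, against 5.48 and 5.49 FPKM in the other libraries of its group. Its 4 oviduct and ciliated cell markers summed to 88.8 FPKM against 3.74 and 4.76 FPKM, and its 4 smooth muscle markers to 154.9 FPKM against 837 and 543 FPKM.

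**Figure D1:**
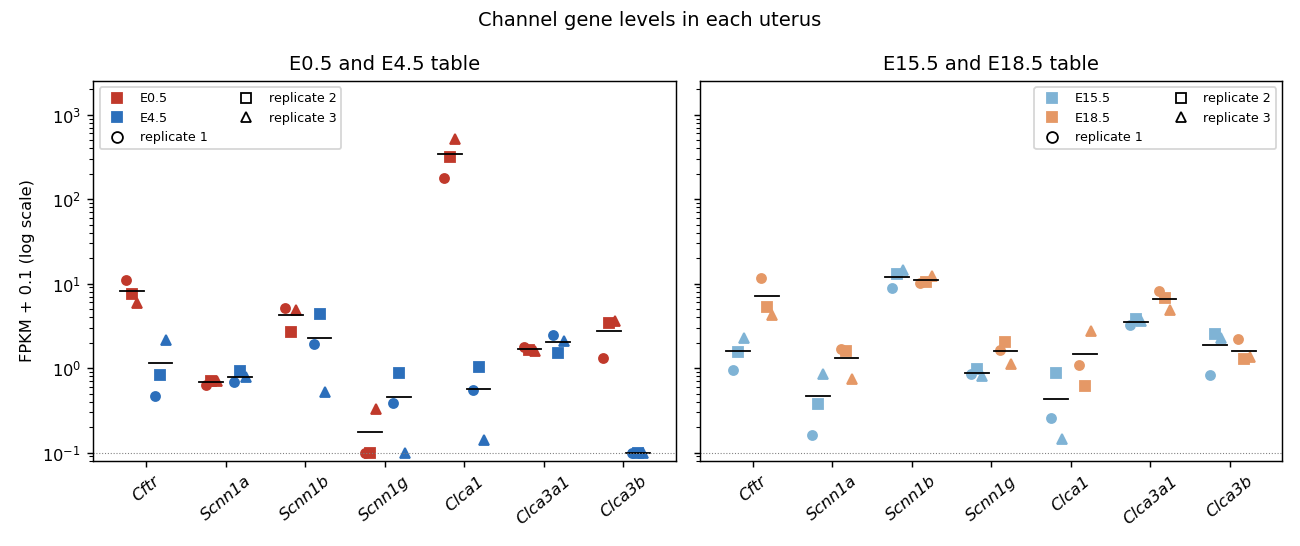
FPKM + 0.1 of the 7 channel genes in each uterus, on a log axis, with the table of E0.5 and E4.5 on the left and that of E15.5 and E18.5 on the right. Each symbol is 1 library and each bar the mean of 3. Clca1 at E0.5 lay between 178 and 516 FPKM, far above every other point, and Clca3b at E4.5 was at 0 in all 3 libraries.

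In the plot of levels in each uterus Clca1 led at E0.5, and Scnn1b had the highest mean on the 3 other days. At E0.5 the order of mean levels was Clca1 (338 FPKM), Cftr (8.06), Scnn1b (4.10), Clca3b (2.66), Clca3a1 (1.57), Scnn1a (0.584) and Scnn1g (0.0766). The libraries of Scnn1b and Clca3b overlapped, as did those of Clca3b and Clca3a1, and the other neighbours in this order did not. At E4.5 the order was Scnn1b (2.16), Clca3a1 (1.91), Cftr (1.06), Scnn1a (0.693), Clca1 (0.471), Scnn1g (0.358) and Clca3b (0), and every pair of neighbours overlapped, with Scnn1g and Clca3b sharing a library at 0. At E15.5 Scnn1b (12 FPKM) stood above Clca3a1 (3.45) and Clca3a1 above Clca3b (1.76) without overlap, followed by Cftr (1.48), Scnn1g (0.778), Scnn1a (0.363) and Clca1 (0.329), each overlapping the next. At E18.5 Scnn1b (10.8), Cftr (6.99) and Clca3a1 (6.53) overlapped from one to the next, and stood above Clca3b (1.51), Scnn1g (1.49), Clca1 (1.39) and Scnn1a (1.23), which also overlapped from one to the next.

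Between E0.5 and E4.5, 3 of the 7 genes met the study's criterion, a change of at least 1 on the log2 scale with an unadjusted p under 0.05, and all 3 (Cftr, Clca1 and Clca3b) were higher at E0.5. Of all 59732 tested rows, 6.37% met it in this direction and 5.82% in the other, in which no channel gene met it. After Benjamini-Hochberg adjustment over all rows in edgeR's quasi-likelihood test, 2 genes (Clca1 and Clca3b) remained below 0.05, against 0.755% of rows higher at E0.5. This number was 3 without E4.5 replicate 3 and 0 without any other single library. It was also 3, with Cftr, in DESeq2 and in limma on log2(FPKM + 0.1). The E0.5 libraries lay wholly above the E4.5 libraries for the same 3 genes, and for 12.8% of all rows. Each of the 7 genes passed the filter of a mean of at least 0.1 FPKM, but Clca3b passed it only through E0.5 and Scnn1g only through E4.5, so a difference was built into their selection.

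Between E18.5 and E15.5, Cftr, Scnn1a and Clca1 met the same criterion and were higher at E18.5, that is 3 of 7 genes against 3.11% of the 30928 tested rows. Without E15.5 replicate 1 or E18.5 replicate 1, 1 of these calls (Cftr) remained. No gene met it in the other direction, against 2.93% of rows. No channel gene passed the adjusted p in limma, where 0.0259% of rows did, and 5 of the 7 had an unadjusted p under 0.05, against 12.2% of rows. The E18.5 libraries lay wholly above the E15.5 libraries for Cftr, Scnn1g and Clca3a1, 3 of 7 genes against 10.9% of all rows. With 3 against 3 libraries, the smallest exact permutation p for 1 gene is 0.1, so the tests rest on the spread pooled across rows.

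**Figure D2:**
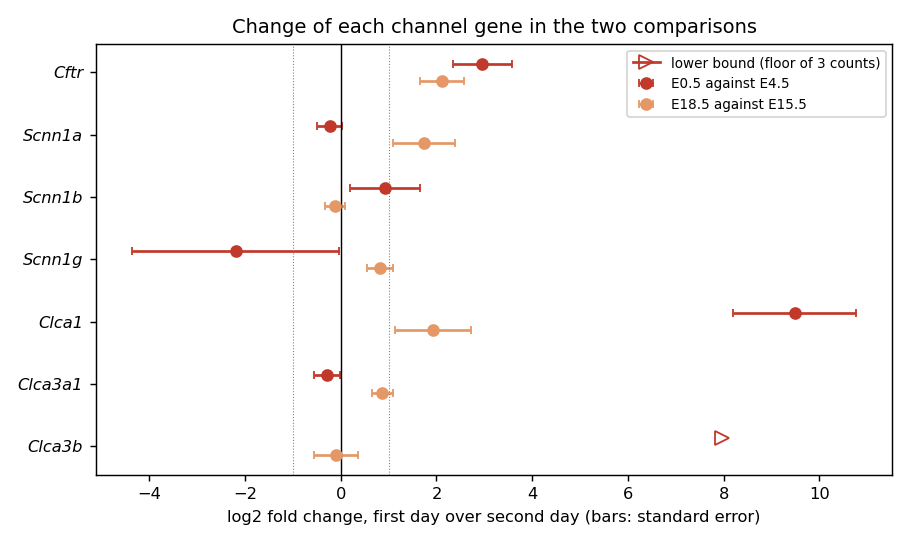
log2 fold change of each channel gene for E0.5 over E4.5 (red, edgeR) and for E18.5 over E15.5 (orange, limma on log2(FPKM + 0.1)). Bars are standard errors, dotted lines mark a change of 1 in either direction, and the open triangle is the lower bound for Clca3b, 7.96. Cftr was above the dotted line in both comparisons, at 2.96 and 2.11.

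Cftr met the study's criterion in both comparisons, as did Clca1. Its level was 10.9, 7.42 and 5.85 FPKM in E0.5 replicates 1, 2 and 3, and 0.370, 0.735 and 2.08 FPKM in the E4.5 replicates. The lowest E0.5 library was above the highest E4.5 library, which was replicate 3, the one that stood apart. The E0.5 libraries averaged 8.06 ± 2.59 FPKM and those of E4.5 averaged 1.06 ± 0.901 FPKM (SD, n = 3 each), a 7.78-fold difference (log2 fold change 2.96, standard error 0.62, adjusted p = 0.0786 in edgeR's quasi-likelihood test). Cftr thus met the study's criterion and not the adjusted one. Without E4.5 replicate 3 the log2 fold change was 3.86 (adjusted p = 0.00433 in edgeR), and the 5 fits without any other library gave an adjusted p between 0.155 and 0.237. The oviduct and ciliated cell markers summed to 18.6, 5.25 and 5.39 FPKM in E0.5 replicates 1, 2 and 3. In the E4.5 replicates they summed to 3.74, 4.76 and 88.8 FPKM, and their part in the level of Cftr was not tested.

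Later in pregnancy Cftr had 0.837, 1.46 and 2.14 FPKM in the E15.5 libraries and 11.7, 5.14 and 4.14 FPKM in the E18.5 libraries. The E18.5 libraries were all above the E15.5 libraries, and E18.5 replicate 1 was more distant from the other 2 than they were from each other. The means were 6.99 ± 4.10 FPKM (SD, n = 3) and 1.48 ± 0.654 FPKM (SD, n = 3). The log2 fold change was 2.11 on the log2(FPKM + 0.1) scale (standard error 0.46, adjusted p = 0.167 in limma). It met the study's criterion in each of the 6 fits that left out 1 library, where the change lay between 1.66 and 2.40. The change of Cftr at the implantation stage minus that at the labor stage was 0.95 (standard error 0.79, adjusted p = 0.571 in limma over 22056 paired rows). Without E4.5 replicate 3 it was 1.55 (adjusted p = 0.206 in limma), which also missed the threshold.

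Cftr lies on chromosome 6 at 18170315 to 18322768 (GRCm38, plus strand). The antisense row Gm15592 and the pseudogene row Gm15595 lie within it, and strand-specific counting is not stated, so reads of the antisense row and of Cftr cannot be told apart. Gm15592 had 382, 197 and 260 counts at E0.5 and 48, 39 and 118 at E4.5, against 9510, 5607 and 5193 and against 322, 614 and 1724 counts of the Cftr row. The antisense row was the smaller in every library, and at E4.5 both were highest in replicate 3.

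In both comparisons the group with more Cftr also had more RNA of epithelial markers. The summed level of 8 epithelial markers (Epcam, Krt7, Krt8, Krt18, Krt19, Cdh1, Cldn4 and Foxa2) was 227 to 271 FPKM at E0.5, above the 77.9 to 167 FPKM of E4.5, with 7 of 8 markers higher at E0.5 and 3 past the criterion, against 6.37% of all rows. In the E18.5 libraries it was 656 to 911 FPKM and in those of E15.5 it was 202 to 450.2 FPKM, with 8 of 8 markers higher at E18.5 and 5 past the criterion, against 3.11% of all rows. The median log2 fold change of the markers was 0.90 and 1.28, against -0.01 and 0.02 over all tested rows, and none of the markers was at 0. Single markers ran from -0.09 (Cldn4) to 2.23 (Krt19) at the implantation stage and from 0.30 (Foxa2) to 2.59 (Cldn4) at the labor stage. Per 100 FPKM of epithelial markers, Cftr was 4.26, 3.27 and 2.16 at E0.5 and 0.318, 0.439 and 2.67 at E4.5, where replicate 3 fell among the E0.5 libraries. The same ratio was 1.28, 0.784 and 0.626 at E18.5 and 0.414, 0.462 and 0.476 at E15.5, without overlap. The part of epithelial content in the change of Cftr was not tested beyond these ratios.

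**Figure D3:**
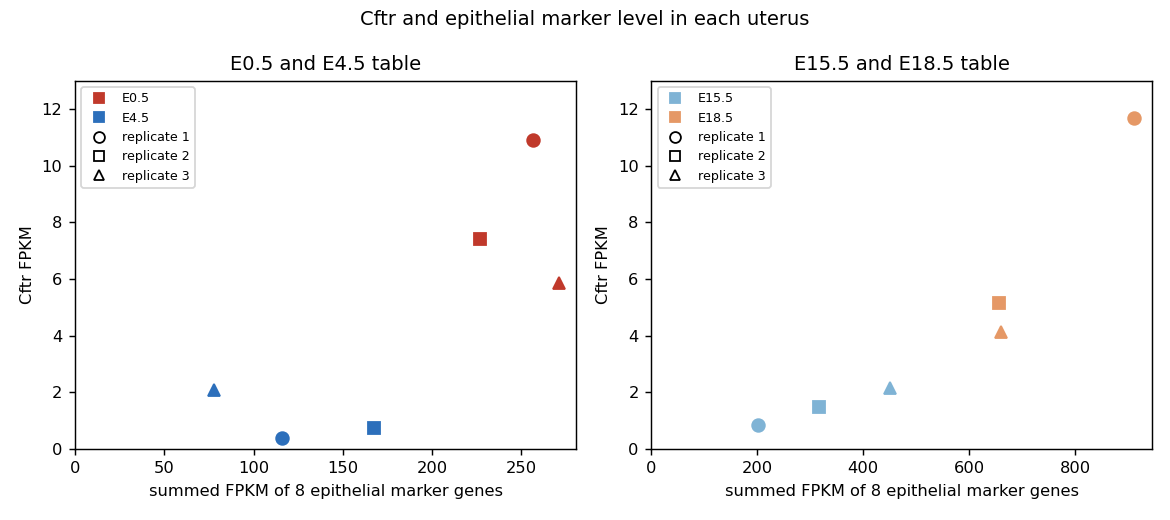
Cftr (FPKM, vertical axis) against the summed FPKM of 8 epithelial marker genes (horizontal axis), with 1 symbol per uterus and the 2 tables in separate panels. In both tables the group with more Cftr also had more epithelial marker RNA, and E4.5 replicate 3 had the highest Cftr (2.08 FPKM) with the lowest marker sum (77.9 FPKM) of its group.

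In the plot of Cftr against epithelial markers, the order of the libraries within a group was not the same at both stages. At E15.5 the library with more marker RNA also had more Cftr, from 202 to 450.2 FPKM of markers. At E0.5 replicate 3 had the highest marker sum, 271 FPKM, and the lowest Cftr, 5.85 FPKM.

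Among the ENaC subunits no gene passed the adjusted test at either stage, and Scnn1a at E18.5 met the study's criterion. Scnn1a, the pore-forming alpha subunit, had 0.538, 0.605 and 0.609 FPKM at E0.5, where E4.5 gave 0.588, 0.814 and 0.677 FPKM, and the groups overlapped. Its log2 fold change was -0.23 (standard error 0.26, adjusted p = 0.689 in edgeR). Per 100 FPKM of epithelial markers it was 0.210, 0.266 and 0.225 at E0.5 and 0.506, 0.486 and 0.869 at E4.5, so on that scale all E4.5 libraries lay above those of E0.5. At E15.5 its level was 0.0601, 0.281 and 0.748 FPKM and at E18.5 it was 1.57, 1.48 and 0.637 FPKM. Here E18.5 replicate 3 lay below E15.5 replicate 3, so the groups overlapped although the means were 1.23 ± 0.515 and 0.363 ± 0.351 FPKM (SD, n = 3 each). The log2 fold change was 1.74 (standard error 0.64, adjusted p = 0.351 in limma). The ratio to epithelial markers overlapped as well, at 0.0297, 0.0888 and 0.166 at E15.5 and 0.173, 0.225 and 0.0964 at E18.5. The criterion was lost without E15.5 replicate 1 (1.14), E15.5 replicate 2 (1.76), E18.5 replicate 1 (1.53) or E18.5 replicate 2 (1.58), with a pseudocount of 1 (0.71) and with the replicate block (1.74, adjusted p = 0.482 in limma), so this call rested on single libraries at levels near 1 FPKM. The change of Scnn1a at the implantation stage minus that at the labor stage was -1.95 (standard error 0.73, adjusted p = 0.185 in limma).

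Scnn1b, the beta subunit, was the most abundant of the ENaC genes in all libraries but E4.5 replicate 3. It had 4.98, 2.57 and 4.73 FPKM at E0.5, followed by 1.84, 4.23 and 0.423 FPKM at E4.5, and E4.5 replicate 2 lay within the range of E0.5. Its log2 fold change was 0.92 (standard error 0.73, adjusted p = 0.558 in edgeR), and without E4.5 replicate 2 it was 1.80 and met the criterion (adjusted p = 0.312 in edgeR). Without E4.5 replicate 3 it was 0.43 (adjusted p = 0.609 in edgeR). Markers of the squamous epithelium of cervix and vagina, 7 genes, summed to 17.5, 0.237 and 15.3 FPKM at E0.5, where replicate 2 was the lowest for Scnn1b as well. At E4.5 they summed to 0.575 to 5.28 FPKM. Krt6a, at 0 in all 3 E4.5 libraries, passed the filter only through E0.5 and met the criterion as higher there, against 6.37% of all rows. Trp63 met it as lower at E0.5 (0.126 against 0.351 FPKM, log2 fold change -1.44), against 5.82%. The part of these markers in the level of Scnn1b was not tested. At E15.5 Scnn1b had 8.73, 12.8 and 14.6 FPKM and at E18.5 it had 10.0, 10.3 and 12.2 FPKM. The E18.5 values lay within the range of the E15.5 values, and the log2 fold change was -0.12 (standard error 0.21, adjusted p = 0.837 in limma). Scnn1b on chromosome 7 at 121865038 to 121918514 (GRCm38, plus strand) overlaps Cog7 of the other strand, so part of its reads may belong to that gene.

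Scnn1g, the gamma subunit, lies on the same strand of chromosome 7 at 121734479 to 121768475. It was the least abundant at E0.5, at 0, 0 and 0.230 FPKM (0, 0 and 60 counts), and it had 0.289, 0.783 and 0 FPKM (74, 192 and 0 counts) at E4.5. Both groups held a library at 0, the log2 fold change was -2.20 with a standard error of 2.17, and the adjusted p was 0.644 in edgeR. Without E0.5 replicate 3, which held all E0.5 counts, Scnn1g met the criterion as lower at E0.5, a call that carries no weight because the gene passed the filter only through E4.5. Closer to labor Scnn1g was detected in every library. It had 0.742, 0.875 and 0.716 FPKM at E15.5, and the E18.5 libraries had 1.56, 1.92 and 1.01 FPKM. The groups did not overlap, and the change of 0.82 on the log2 scale (standard error 0.27, adjusted p = 0.302 in limma) was below the minimum of the criterion. Without E18.5 replicate 3 it was 1.06 and met it.

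**Figure D4:**
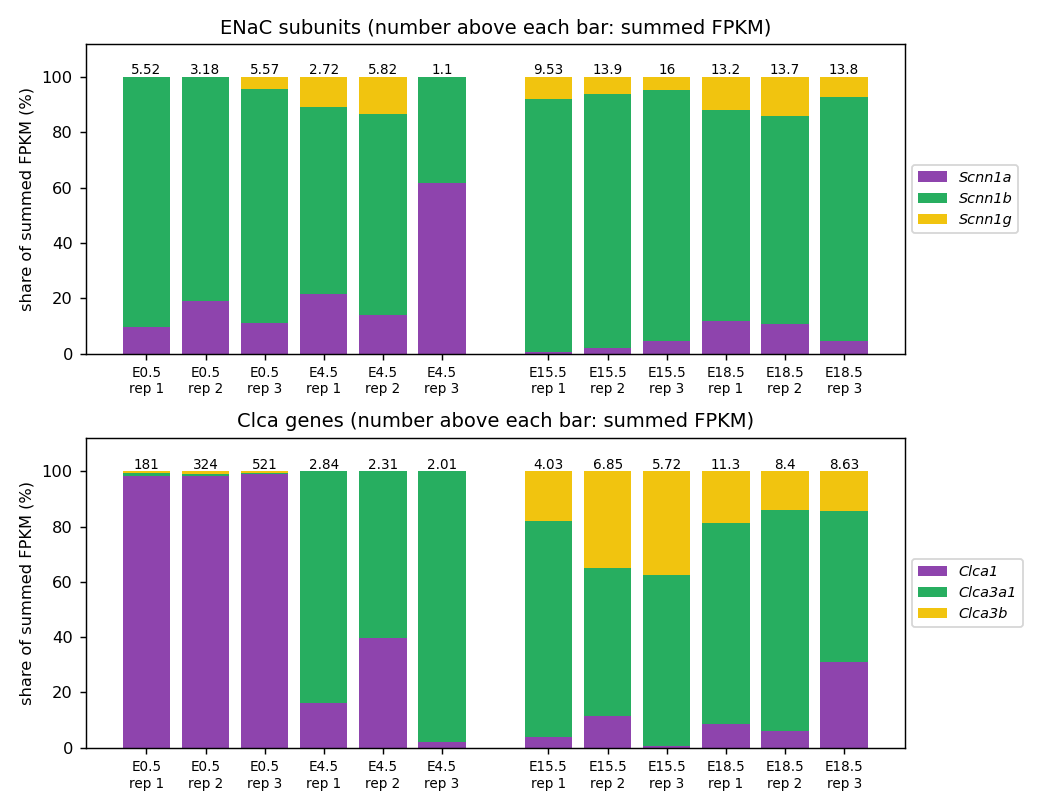
Share (%) of the summed FPKM of the 3 ENaC subunits (top) and the 3 Clca genes (bottom) in each library, with the summed FPKM above each bar. Scnn1b made up 90.9% to 91.7% of ENaC at E15.5 and 75.2% to 88.1% at E18.5, and Clca1 made up at least 98.4% of the Clca sum at E0.5.

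The plot of shares within each family shows that the ENaC subunits were not at equal levels in any library. The summed ENaC level ranged from 3.18 to 5.57 FPKM at E0.5, from 1.10 to 5.82 FPKM at E4.5, from 9.53 to 16 FPKM at E15.5 and from 13.2 to 13.8 FPKM at E18.5. The ratio of Scnn1b to Scnn1a was 9.26, 4.25 and 7.77 at E0.5 and 3.13, 5.19 and 0.625 at E4.5. At E15.5 it was 145, 45.5 and 19.5, and at E18.5 it was 6.38, 6.96 and 19.1. All E15.5 ratios were thus above all E18.5 ratios, narrowly in the case of replicate 3 of each day.

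The Clca genes held the largest level and the largest change of the 7 genes. Clca1, the goblet cell member, had 178, 319 and 516 FPKM at E0.5 (57395, 89255 and 169524 counts) and 0.455, 0.918 and 0.0404 FPKM at E4.5 (147, 284 and 13 counts). The groups were far apart, and the lowest E4.5 value belonged to replicate 3. The means were 338 ± 170 and 0.471 ± 0.439 FPKM (SD, n = 3 each), a 716-fold difference (log2 fold change 9.48, standard error 1.29, adjusted p = 0.0316 in edgeR's quasi-likelihood test). Per 100 FPKM of epithelial markers, Clca1 was 69.4 to 190.2 at E0.5 and 0.0518 to 0.548 at E4.5, so the groups were also far apart on that scale.

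The adjusted call of Clca1 depended on which libraries were kept, while its direction did not. Without E4.5 replicate 3 the adjusted p was 0.00206 in edgeR, at a log2 fold change of 8.94. Without E0.5 replicates 1, 2 or 3 the adjusted p was 0.115, 0.138 and 0.112, and without E4.5 replicates 1 or 2 it was 0.129 and 0.0713, with log2 fold changes between 9.04 and 10.34. On both later days Clca1 was low, with 0.158, 0.783 and 0.0460 FPKM at E15.5, then 0.974, 0.509 and 2.68 FPKM at E18.5. The groups overlapped, since E15.5 replicate 2 was above E18.5 replicate 2. The log2 fold change was 1.92 (standard error 0.79, adjusted p = 0.403 in limma), and the criterion, met with all libraries, was lost without E15.5 replicate 1 (1.76), E15.5 replicate 3 (1.35), E18.5 replicate 1 (2.02) or E18.5 replicate 3 (1.33), and in 5 of 6 other settings tried. The difference between the change at the implantation stage and that at the labor stage was 7.56 for Clca1 (standard error 1.18, adjusted p = 0.00991 in limma), where 2.64% of 22056 paired rows passed.

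Clca3b was found at E0.5 and not at E4.5. It had 1.21, 3.31 and 3.47 FPKM at E0.5 (347, 825 and 1016 counts), and 0 counts in each of the 3 E4.5 libraries. A count of 0 allows up to 3 counts per library, an allowance for counting error only, and against that floor E0.5 was at least 249-fold higher. Leaving out 1 E0.5 library at a time gave bounds of at least 212-fold to at least 319-fold. The adjusted p was 0.0233 in edgeR's quasi-likelihood test. It was 0.0051 without E4.5 replicate 3, and without E0.5 replicates 1, 2 and 3 or E4.5 replicates 1 and 2 it was 0.063, 0.137, 0.108, 0.0763 and 0.0523. As Clca3b passed the filter only through E0.5, the group where it was high, these p-values are no independent support for a difference.

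Unlike at E4.5, Clca3b was detected in every library of E15.5 and E18.5. It had 0.720, 2.41 and 2.14 FPKM at E15.5, then 2.12, 1.17 and 1.24 FPKM at E18.5, and the groups overlapped. The log2 fold change was -0.10 (standard error 0.46, adjusted p = 0.952 in limma), and its sign changed with the library left out. The changes of Clca3b at the 2 stages differed by 4.75 on the log2(FPKM + 0.1) scale (standard error 0.68, adjusted p = 0.00683 in limma) and by 1.9 with a pseudocount of 1 (adjusted p = 0.0402), since the size of this difference depends on the value added to 0. As Clca3b at E4.5 was at 0 throughout and the gene was tested through its E0.5 level, this p is no independent support for a difference.

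Clca3a1 was the 1 Clca gene of the 7 that did not meet the criterion at the implantation stage. It had 1.67, 1.55 and 1.5 FPKM at E0.5, then 2.38, 1.39 and 1.97 FPKM at E4.5, and the groups overlapped (log2 fold change -0.29, standard error 0.27, adjusted p = 0.622 in edgeR). The E15.5 libraries had 3.16, 3.66 and 3.53 FPKM and the E18.5 libraries 8.17, 6.71 and 4.72 FPKM. All E18.5 libraries were above all E15.5 libraries, and the means were 6.53 ± 1.73 and 3.45 ± 0.262 FPKM (SD, n = 3 each). The 4 lymphatic endothelium markers summed to 91.6, 122 and 117 FPKM at E15.5, in the same order as Clca3a1, and to 203, 156 and 159 FPKM at E18.5, also without overlap, and their part in its level was not tested. The change of 0.87 on the log2 scale (standard error 0.21, adjusted p = 0.196 in limma) was under the minimum of the criterion, which it passed at 1.08 without E18.5 replicate 3. Per 100 FPKM of epithelial markers, Clca3a1 was 0.650, 0.684 and 0.551 at E0.5 and 2.05, 0.831 and 2.53 at E4.5, so on that scale all E4.5 libraries lay above those of E0.5. The same ratio was 1.56, 1.16 and 0.783 at E15.5 and 0.897, 1.02 and 0.714 at E18.5, and these overlapped. Its changes at the 2 stages differed by -1.11 (standard error 0.32, adjusted p = 0.0973 in limma), which missed the threshold.

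The makeup of the Clca sum changed with the day. Clca1 was 98.4%, 98.5% and 99.0% of the sum of the 3 genes at E0.5 and 16%, 39.7% and 2.01% at E4.5. Clca3a1 made up the rest at E4.5, from 60.3% to 98.0%. At E15.5 and E18.5 Clca3a1 was again the largest of the 3 in each library, and Clca1 was 0.804% to 11.4% at E15.5 and 6.07% to 31.0% at E18.5.

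The Clca genes lie together on the minus strand of chromosome 3 (GRCm38), Clca3a1 at 144729677 to 144760977, Clca3b at 144822623 to 144849357 and Clca1 at 145003817 to 145032776. Reads of such related copies can be split between them by the counting, so their values are uncertain to that extent. Of the 4 other Clca genes, Clca3a2 and Clca2 were tested at both stages. Clca3a2 had 7.16, 11.9 and 7.38 FPKM at E0.5, then 0.355, 0.0971 and 0.104 FPKM at E4.5, without overlap (log2 fold change 5.52, standard error 0.67, adjusted p = 0.0248 in edgeR). This call held without E4.5 replicate 1 or 3 and was lost without any of the 4 other libraries, at log2 fold changes between 5.20 and 6.45 over the 6 fits. Its E15.5 libraries had 0.186, 0.241 and 0.135 FPKM and its E18.5 libraries 0.883, 0.515 and 0.390 FPKM, and it met the study's criterion (log2 fold change 1.23, standard error 0.36, adjusted p = 0.255 in limma). The criterion was lost without E18.5 replicate 1 and with a pseudocount of 1, and with a filter of at least 1 FPKM the row was not tested. Clca2 did not meet the criterion at either stage, with log2 fold changes of -1.36 and -0.09, and met it at E0.5 against E4.5 without E4.5 replicate 3. Clca4a and Clca4b were below the filter at both stages.

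**Figure D5:**
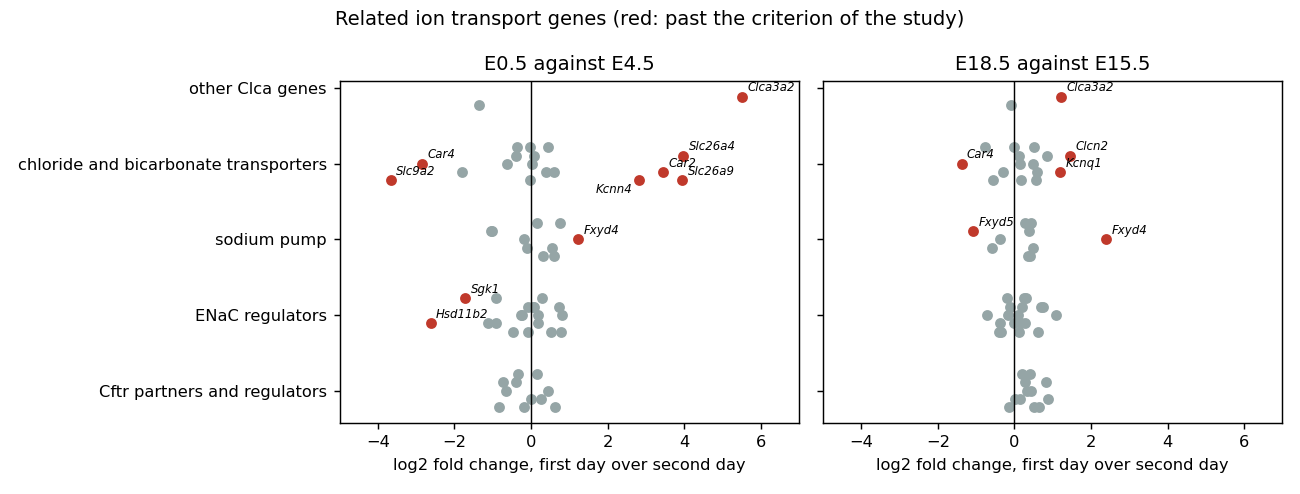
log2 fold change of the tested genes of 5 related lists for E0.5 over E4.5 (left) and E18.5 over E15.5 (right), with 1 point per gene. Red, named points met the study's criterion. Of 17 chloride and bicarbonate transporters tested on the left, 4 were red on the side higher at E0.5 and 2 on the other side, and no Cftr partner was red in either panel.

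The other ion transport genes, shown in the plot of related lists, were counted by the same criterion. Of 17 tested chloride and bicarbonate transport genes, 4 were higher and 2 lower at E0.5 than at E4.5, against 6.37% and 5.82% of all rows, and the median log2 fold change of the list was 0.02 against -0.01 for all rows. Those past the adjusted p in edgeR were Slc26a9, an epithelial chloride channel and transporter, at 3.66 ± 2.01 against 0.236 ± 0.0258 FPKM (log2 fold change 3.95, adjusted p = 0.021), and Car2, a carbonic anhydrase that makes bicarbonate, at 65.8 ± 20.6 against 6.10 ± 4.03 FPKM (3.44, adjusted p = 0.0434). The adjusted call held without E4.5 replicate 3 for both and without E0.5 replicate 3 for Slc26a9, and was lost in the other fits without 1 library. The anion exchanger Slc26a4 (3.97) and the potassium channel Kcnn4 (2.83) were the other 2 higher genes, and the sodium proton exchanger Slc9a2 (-3.66) and the membrane-bound carbonic anhydrase Car4 (-2.85) were the lower ones; these 4 were named after their values were seen. Slc9a2 averaged 0.0317 FPKM at E0.5 and passed the filter only through E4.5, so its lower call was built into its selection. Without E4.5 replicate 3, Slc26a4 (3.45, adjusted p = 0.00274) and Kcnn4 (3.57, adjusted p = 0.00915) also passed the adjusted p in edgeR. Car4 lost the criterion without E0.5 replicate 3 or E4.5 replicate 2. At the labor stage 15 genes of the list were tested, of which the chloride channel Clcn2 (1.44) and the potassium channel Kcnq1 (1.19) were higher at E18.5 and Car4 (-1.38) lower, against 3.11% and 2.93% of all rows, with a median of 0.16 against 0.02 for all rows. None of them passed the adjusted p in limma, 5 had an unadjusted p under 0.05 where 12.2% of all rows did, and without E15.5 replicate 1 a single gene, Car4, met the criterion. Car4 lost it without any other single library.

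Of 19 tested regulators of ENaC, 2 met the criterion at the implantation stage, both lower at E0.5, where 5.82% of all rows were. Hsd11b2, the enzyme that inactivates glucocorticoids and so keeps the mineralocorticoid receptor open to aldosterone, averaged 5.09 ± 1.38 FPKM at E0.5, below the 31.3 ± 19.1 FPKM of E4.5 (log2 fold change -2.63, standard error 0.60, adjusted p = 0.0952 in edgeR). Sgk1, the kinase that keeps ENaC at the cell surface, averaged 7.84 ± 3.13 FPKM, below the 26.3 ± 20.1 FPKM of E4.5 (log2 fold change -1.71, standard error 0.54, adjusted p = 0.178 in edgeR). The groups of both genes did not overlap. Without E4.5 replicate 3 the change of Hsd11b2 was -3.07 (adjusted p = 0.00231 in edgeR) and that of Sgk1 was -0.93, which is short of the criterion. Leaving out 1 library at a time moved this count of 2 to 1 without E0.5 replicate 2 or 3, to 5 without E4.5 replicate 1 and to 3 without E4.5 replicate 2 or 3. At the labor stage 0 of 19 met the criterion in limma, 2 had an unadjusted p under 0.05 against 12.2% of rows, and the medians of the list were -0.07 and 0.12 at the 2 stages.

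Of the partners and regulators of Cftr, such as the PDZ scaffold genes and protein kinase A subunits, 0 of 11 met the criterion in edgeR at the implantation stage and 0 of 12 in limma at the labor stage, and 1 had an unadjusted p under 0.05 at each, against 17% and 12.2% of all rows. Their median log2 fold changes were -0.18 and 0.37, against -0.01 and 0.02 over all tested rows, and 11 of 12 were higher at E18.5. With single libraries left out, 1 gene met the criterion without E0.5 replicate 2, E4.5 replicate 2, E4.5 replicate 3 or E15.5 replicate 2, and 2 genes without E15.5 replicate 3. Of the 10 sodium pump subunits and FXYD regulators, which drive the export of sodium from the cell, Fxyd4 met the criterion at both stages, as 6.37% and 3.11% of all rows did in the same direction. It met it in every fit without 1 library. Its E0.5 libraries averaged 6.52 ± 0.218 FPKM and those of E4.5 averaged 2.82 ± 1.13 FPKM (log2 fold change 1.23, adjusted p = 0.0876 in edgeR, and 1.54 with 0.00869 without E4.5 replicate 3). Its E18.5 libraries averaged 9.12 ± 2.37 FPKM and those of E15.5 averaged 1.70 ± 0.629 FPKM (log2 fold change 2.39, adjusted p = 0.0742 in limma). Fxyd5 was lower at E18.5 by the criterion (log2 fold change -1.07, adjusted p = 0.185 in limma), and the list medians were 0.24 and 0.36. The number past the criterion was 2 in place of 1 at the implantation stage without E4.5 replicate 1 or 3, and 1 in place of 2 at the labor stage without E15.5 replicate 1, E18.5 replicate 1 or E18.5 replicate 2.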

How the data were processed

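RNA was sequenced by the study from 12 uteri. The authors computed FPKM with StringTie and deposited 1 gene table per stage, and the gene counts deposited for E0.5 and E4.5 are whole numbers that were used as such. Labels and methods differ on how the libraries were made (poly(A) selection and NovaSeq, or removal of ribosomal RNA and HiSeq). The submitters' processing notes name Bowtie 0.12.2, HISAT2 2.0 and StringTie 1.3.0 and the builds mm8 and mm10, and the methods name Cutadapt, Bowtie2, Tophat2 and Ballgown. Of 18921 protein-coding rows with 1 gene name, 18916 overlap the RefSeq GRCm38 gene of that name. The first table holds 0.0001 in place of 0, which was set back to 0.

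From these values, rows that averaged 0.1 FPKM or more over 6 libraries were tested. E0.5 against E4.5 was tested on counts with edgeR 4.0.16 (TMM factors, quasi-likelihood test), and E18.5 against E15.5 on log2(FPKM + 0.1) with limma 3.58.1 (trend), in R 4.3.3 with Benjamini-Hochberg adjustment over all tested rows. A fold change on the log2(FPKM + 0.1) scale understates the change of low genes. The difference between stages was tested with limma over rows that share Ensembl transcripts. The edgeR and limma tests within a stage were first run on simulated data, while the test of the difference between stages and DESeq2 were not. Alternatives were DESeq2 1.42.0, limma on the first table, upper quartile factors, quantile normalization, limma without trend, other filters and pseudocounts, a replicate block, ratios of group means and each library left out.

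The genes, lists and markers were chosen with earlier results of these data known. All 7 genes are named whatever their values. From each related list the genes past the adjusted p are named, or else up to 4 with the largest change among those past the criterion, and for Cftr, Scnn1a and Clca1 the 3 protein-coding rows with the most similar pattern. No sequence table was used, so promoter motifs were not searched. The epithelial marker list was used without 1 of its genes, which is not reported here. Each group holds 3 mice, and no sample was left out.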

Additional observations from a re-analysis of the deposited data

Results flagged for a closer look

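The change of Clca1 between the days of the implantation stage exceeded its change at the labor stage by 7.56 on the log2 scale, by limma's test of the difference. For Clca3b the changes at the 2 stages differed by 4.75, or by 1.9 with a pseudocount of 1, a size set by the value added to its 0 at E4.5. Another 3 short unannotated rows that carry a channel gene's name but no Ensembl transcript were not used. The one inside Scnn1a reached 27 counts, in E0.5 replicate 2, and those inside Clca3a1 reached 46 counts in E0.5 replicate 3 and 51 counts in E4.5 replicate 3.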

How the results depend on the processing

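The number of channel genes past the adjusted p at E0.5 against E4.5, 2 with all libraries, lay between 0 and 3 when 1 library was left out, with 3 only without E4.5 replicate 3 and 0 in the other 5 fits. It was 0 with the replicate block, under which no row of the whole table passed, against 719 rows in edgeR without it and 4810 in DESeq2. It was 3 in DESeq2 (Cftr adjusted p = 3.4e-05) and in limma on log2(FPKM + 0.1), where Cftr passed only at the threshold (0.05), and 2 (Cftr and Clca1) in limma with a pseudocount of 1. The number past the study's criterion, 3 with all libraries and with the block, was 4 without E0.5 replicate 3 or E4.5 replicate 2 and 3 in the other 4 fits without 1 library. At E18.5 against E15.5 the number past the criterion, 3, was 1 with a filter of a mean of at least 1 FPKM, 1 with a pseudocount of 1 and 1 with the replicate block, and lay between 1 and 4 when 1 library was left out, with 1 without E15.5 replicate 1 or E18.5 replicate 1 and 4 without E18.5 replicate 3. Under the filter Scnn1a and Clca1 were no longer tested. The cause of the other changes was not tested. The sign of 2 uncalled changes at the labor stage turned when 1 library was left out, where Scnn1b lay between -0.34 and 0.030 and Clca3b between -0.61 and 0.20. Of the other fits of single channel genes, 15 lost the study's criterion, 4 gained it and the rest kept direction and criterion. The adjusted p of Clca1 and Clca3b at E0.5 against E4.5 was 0.124 and 0.0969 in edgeR with the block. Same-numbered libraries correlated between -0.07 and 0.02 in their deviations from the group means, so the replicate numbers did not pair the samples. The bounds of Clca3b without 1 library were chosen after seeing the data. With 3 mice per group, and no depth for E15.5 and E18.5, the changes of Scnn1g and Clca1 at the labor stage rested on levels of at most 2.68 FPKM.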

Other observations

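Among 10851 paired rows, those with the pattern most like Cftr over the 12 libraries (Pearson's r of log2(FPKM + 0.1), centred within each table) were Cadm4, a cell adhesion gene, with r = 0.99, Ldhd, a lactate dehydrogenase, with r = 0.98, and Pmepa1, an inhibitor of TGF-beta signaling, with r = 0.98. These correlations describe libraries that share day and tissue makeup. Cadm4 averaged 4.36 ± 0.573 FPKM at E0.5, then 1.58 ± 0.786 FPKM at E4.5, 1.43 ± 0.373 FPKM at E15.5 and again 3.50 ± 0.779 FPKM at E18.5 (SD, n = 3 each). Closest to Scnn1a were Zbtb2 (r = 0.95), Hexim1 (0.95) and Zfp609 (0.94), whose groups overlapped at E0.5 against E4.5. Closest to Clca1 were Spon2 (0.97), Cbr2 (0.97) and Slc24a3 (0.96). Cbr2, a carbonyl reductase, averaged 136 ± 49.7 FPKM at E0.5, then 5.34 ± 0.549 FPKM at E4.5 (log2 fold change 4.69, adjusted p = 0.00749 in edgeR). As Cbr2 was chosen for its likeness to Clca1 over these same libraries, this p is no independent support for its change.

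Other marker groups differed between libraries as well. The 2 blood endothelium markers summed to 48.5 to 78.9 FPKM at E18.5, below the 119 to 148 FPKM of E15.5, and to 10.3 to 12.5 FPKM at E0.5, below the 16.1 to 33.5 FPKM of E4.5. The 6 yolk sac and placenta markers summed to 12, 107 and 782 FPKM in E15.5 replicates 1, 2 and 3 and to 223, 590 and 128 FPKM in the E18.5 replicates, and the groups overlapped. The E15.5 libraries stood in the same order for Cftr, Scnn1a, Scnn1b and the epithelial marker sum (202, 316 and 450.2 FPKM) as for the summed yolk sac and placenta markers. At E18.5 none of them followed the order of that sum, with Cftr at 11.7, 5.14 and 4.14 FPKM and Scnn1b at 10.0, 10.3 and 12.2 FPKM. The part of the yolk sac and placenta markers in these levels was not tested.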
